A study of Drosophila melanogaster with 6 samples.

Results

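The genes described here encode the protein components of the mitochondrial ribosome. They were chosen by name, as the genes whose symbol in the array's probe annotation begins with mRpL (large subunit) or mRpS (small subunit) and which have a probe set assigned to that gene alone. This gave 69 genes of 11983 measured, 44 of the large subunit and 25 of the small subunit. RNA came from whole Drosophila embryos of stages 11 to 16, aged at 25 C and passed through an embryo sorter. In 3 samples the embryos carried UAS-Sage under the tub-Gal4 driver, and these are called Sage overexpression or Sage. They were set against 3 samples of wild type Oregon R embryos (WT) matched in age and handling, and Oregon R is also the background given for the transgenic embryos. Sage, a bHLH protein, is normally made in the salivary gland, whereas tub-Gal4 acts in most cells, and the comparison asks which genes differ when Sage is made throughout the embryo. The labels do not describe the wild type embryos as carrying the driver, and they do not say whether replicates came from separate collections, so the p-values rest on a spread between samples that may be technical.

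Mitochondria keep a small genome of their own, and its messages, nearly all for subunits of the respiratory chain, are read by a dedicated ribosome inside the organelle. The RNA of that ribosome is made in the mitochondrion, whereas all of its proteins are encoded in the nucleus, made in the cytosol and imported. Some of these proteins descend from bacterial ribosomal proteins and others are found only in mitochondria. In Drosophila, partial loss of a mitochondrial ribosomal protein, as in technical knockout mutants, slows development and causes bang sensitivity.

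Each sample was read on 1 Affymetrix array, and the values are log2 RMA values, a scale on which a difference of 1 is a doubling. Array medians over all probe sets lay between 5.42 and 5.5. Sage RNA, the check of the labels, read 12.17, 12.31 and 12.28 on the Sage arrays, against 7.68, 8.08 and 7.4 on the WT arrays. Of 28 tissue markers 21 were measured, and 18 of these had a mean above 5.51, the median probe set; vas of the germ line, Hml of blood cells and Jon25Bi of the gut did not. Of the 21 markers 4 rose and 0 fell in Sage embryos, where 4.36% of all genes rose and 3.72% fell. They were sage, the overexpressed gene itself, sens and PH4alphaSG1 of the salivary gland, and Pxn of blood cells. Pxn rose by 1.06 (limma adjusted p 0.0022), whereas srp and Hml, of the same fat body and blood group, had differences of -0.26 and 0.10 (adjusted p 0.67 and 0.68). The remaining salivary gland marker, fkh, had a difference of 0.03 (adjusted p 0.94). Some technical readings differed between the groups. All 24 probe sets for the polyA spike-ins, bacterial RNAs added before labelling, were lower on the Sage arrays, with a median log2 difference of -1.65. The gap between 3′ and 5′ probe sets of the actin control transcript was 2.73, 2.82 and 2.77 on the Sage arrays, against 1.59, 1.42 and 1.43 on the WT arrays. The part of the markers and of these readings in the differences given below was not tested.

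Among the mitochondrial ribosomal protein genes, 1 rose and 2 fell in Sage embryos. The gene that rose was mRpL48, 2.0-fold, and those that fell were mRpS5, 1.60-fold, and mRpS11, 1.43-fold, at a limma adjusted p under 0.05 over all genes. Of the genes of the family 1.45% were raised, against 4.36% of all genes, and 2.9% lowered, against 3.72% of all genes. The family thus held no larger a share of called genes than the array as a whole. With replicate number as a block the same 3 genes passed, while the shares over all genes became 7.35% raised and 7.39% lowered. At an unadjusted p under 0.05, 2 genes were higher and 9 lower, or 2.9% and 13.0%, against 11.7% and 12.8% of all genes. In whole embryos, fewer cells of a type and less RNA per cell cannot be told apart.

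The sign of the differences was nevertheless uneven. Of the 69 genes 55 had a negative difference, Sage minus WT, or 79.7% against 51.1% of all genes, and the median was -0.20 against -0.01. With dim probe sets left out, the median over the 7769 genes that remained was -0.06. In 36 genes the size was under 0.25 on the log2 scale, in 26 from 0.25 up to 0.5 and in 7 at least 0.5, where all genes had 60.3%, 21.7% and 18.0% in these classes. The 95% interval of 58 genes included 0, as did that of 75.5% of all genes. All Sage arrays lay below all WT arrays for 15 genes, or 21.7% against 16.1% of all genes, and above them for 3 genes, or 4.35% against 15.7%. As described further on, 1 wild type array carries much of this shift: without WT array 2 the median was -0.04.

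**Figure D1:**
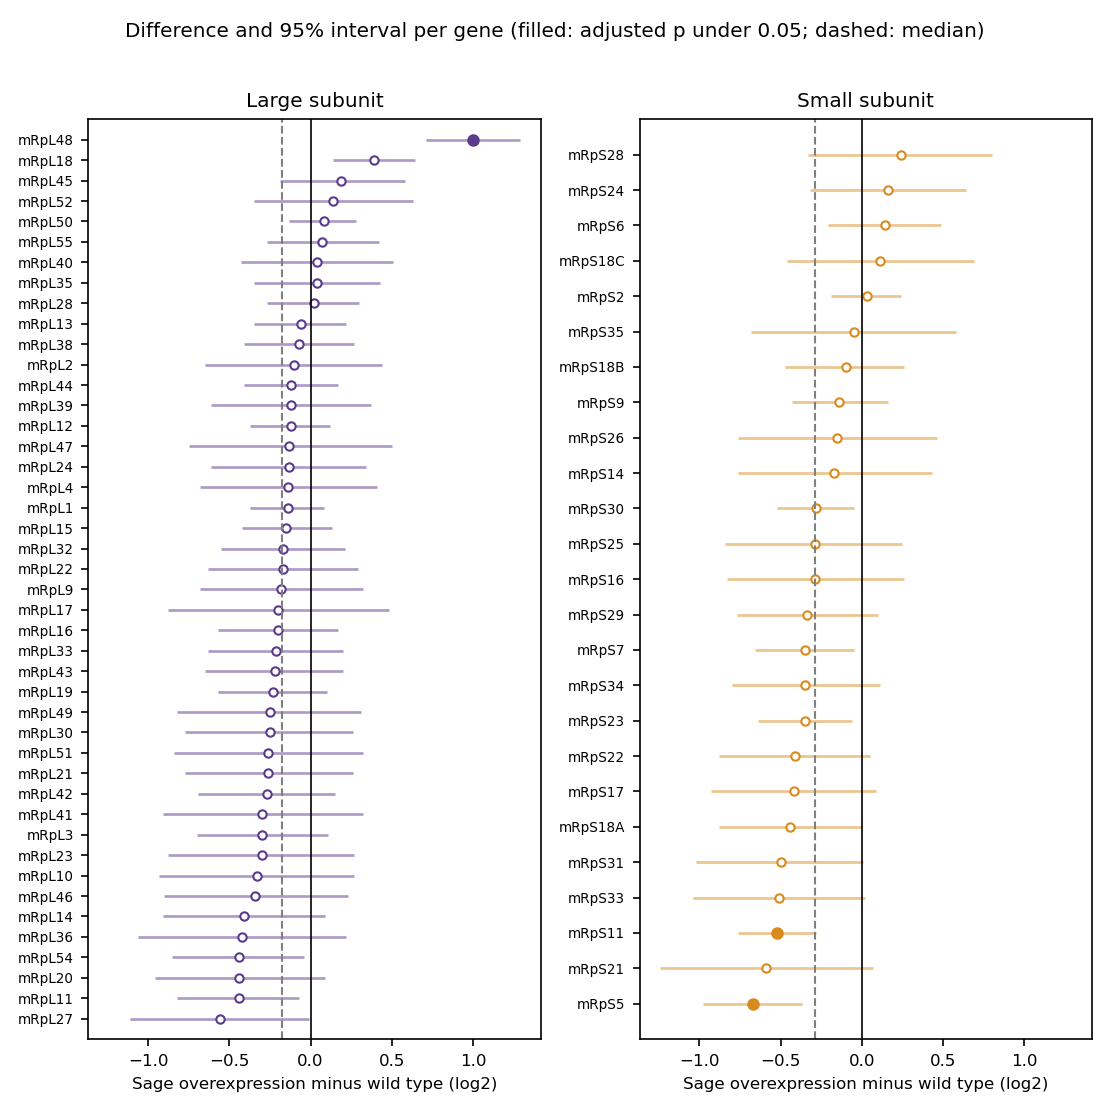
Sage overexpression minus wild type difference (log2, horizontal axis) of each mitochondrial ribosomal protein gene, with its 95% interval from limma. Filled points passed an adjusted p of 0.05, the dashed line is the subunit's median (-0.17 for the large, -0.29 for the small subunit), and most intervals cross 0.

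The large subunit carries the peptidyl transferase centre, where peptide bonds form, and the tunnel through which the new chain leaves. Its 44 genes had a median difference of -0.17 and a range of -0.56 to 1.0, with 35 negative. The gene that rose, mRpL48, encodes a protein specific to mitochondria that in mammals sits in the central protuberance, the crown of the subunit that faces the small subunit's head. It read 9.54, 9.55 and 9.58 on the Sage arrays, against 8.66, 8.68 and 8.33 on the WT arrays. The lowest Sage value was thus well above the highest WT value, and the Sage arrays differed little among themselves (9.56 ± 0.02 against 8.56 ± 0.20, SD, n = 3 each). The log2 difference was 1.0 (SE 0.12, 95% interval 0.71 to 1.29, limma adjusted p 0.0064), and it lay between 0.89 and 1.06 when any 1 array was left out, with an adjusted p of at most 0.046. Against a minimum log2 fold of 0.58 it did not pass (adjusted p 0.26).

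A second central protuberance gene had the next highest difference. mRpL18, whose bacterial relative binds 5S ribosomal RNA, read 9.43, 9.46 and 9.63 on the Sage arrays, against 9.14, 9.19 and 9.03 on the WT arrays. The groups did not overlap, but the difference of 0.39 (SE 0.10) missed the threshold with an adjusted p of 0.072. Of the 9 measured genes placed in the central protuberance from mammalian structures, 4 had positive and 5 negative differences around a median of -0.07. mRpL27, whose bacterial counterpart reaches into the peptidyl transferase centre, belongs to the same group and had the lowest difference of the large subunit. It read 9.19, 9.50 and 9.40 on the Sage arrays, against 9.73, 10.44 and 9.60 on the WT arrays, a difference of -0.56 (SE 0.23, adjusted p 0.20). The Sage values all lay below the WT values, yet the WT values themselves spanned more than the difference between the group means. mRpL46, also of the central protuberance, had a difference of -0.34.

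After mRpL48 and mRpL18, the highest differences of the large subunit were 0.19 for mRpL45, 0.14 for mRpL52 and 0.08 for mRpL50. mRpL45 is a relative of the import motor subunit Tim44 that in mammals lies at the mouth of the exit tunnel near the inner membrane. The 95% intervals of these 3 genes, -0.19 to 0.58, -0.35 to 0.63 and -0.13 to 0.28, included 0. mRpL50 varied little from array to array, with 9.23, 9.18 and 9.24 on the Sage arrays, against 9.11, 9.17 and 9.14 on the WT arrays. The 8 measured genes at the rim of the exit tunnel had a median of -0.13 and 7 negative differences, and none had separate groups. These signs rested on the arrays numbered 2: without both of them the median was 0.02, with 2 negative and 6 positive differences.

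After mRpL27, the lowest differences of the large subunit were -0.44 for mRpL11, mRpL20 and mRpL54 and -0.42 for mRpL36. mRpL11 forms the base of the stalk that recruits elongation factors, mRpL54 lies close to that stalk in mammals, and mRpL20 is the relative of a bacterial assembly protein. Their adjusted p-values lay between 0.15 for mRpL11 and 0.40 for mRpL36. A list that joins this stalk with the separate L1 stalk held 5 measured genes, mRpL1, mRpL10, mRpL11, mRpL12 and mRpL54. All 5 had negative differences, with a median of -0.33. In 3 of them all Sage arrays lay below all WT arrays, or 60.0% of a list of 5, against 16.1% of all genes. None passed the threshold. Within this list the sizes differed. mRpL12, which encodes the flexible tip of the stalk that recruits elongation factors, read 10.56, 10.69 and 10.68 on the Sage arrays, against 10.74, 10.88 and 10.67 on the WT arrays. Its groups overlapped, and its difference was -0.12 (SE 0.10).

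The small subunit binds the messenger RNA and holds the decoding centre. Its 25 genes had a median difference of -0.29 and a range of -0.67 to 0.24, with 20 negative. Both genes that fell belong to it, and both have bacterial relatives. mRpS5, whose relative lines the channel through which the message enters, read 10.58, 10.73 and 10.64 on the Sage arrays, against 11.18, 11.56 and 11.23 on the WT arrays. Every Sage value lay below every WT value, and the difference was -0.67 (SE 0.13, 95% interval -0.98 to -0.37, limma adjusted p 0.027). mRpS11, on the platform near the message's exit in bacteria, read 9.66, 9.77 and 9.77 on the Sage arrays, against 10.23, 10.37 and 10.16 on the WT arrays, again with no overlap. Its difference was -0.52 (SE 0.10, 95% interval -0.76 to -0.28, adjusted p 0.030). A dimmer probe set of the same gene read 8.80, 8.72 and 8.80 on the Sage arrays, against 9.18, 9.34 and 9.09 on the WT arrays, a difference of -0.43 (SE 0.09).

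Both falls still passed when both arrays numbered 2 were left out together, with differences of -0.60 for mRpS5 (adjusted p 0.024) and -0.48 for mRpS11 (adjusted p 0.045). Both missed the threshold when any Sage array was left out, with adjusted p-values up to 0.13 for mRpS5 and 0.12 for mRpS11. mRpS5 also missed it without WT array 3 (adjusted p 0.052) and mRpS11 without WT array 1 (adjusted p 0.073).

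**Figure D2:**
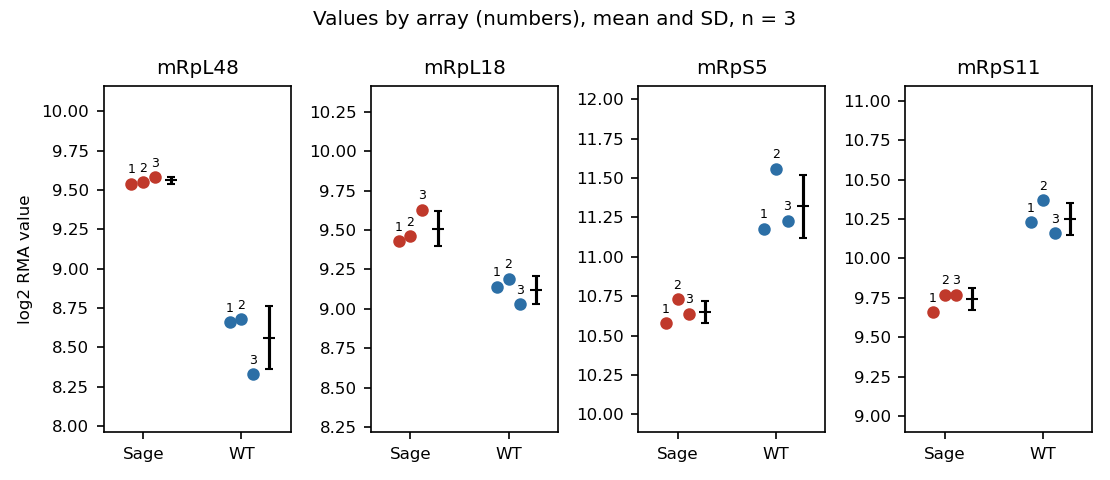
Log2 RMA values of mRpL48, mRpL18, mRpS5 and mRpS11 on each array, numbered by replicate, with the mean and SD of each group (n = 3). The vertical axes differ in position but span the same range, and in each of the 4 genes the Sage and WT arrays do not overlap.

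The other low members of the small subunit had wider WT spreads. mRpS21 read 9.72, 10.22 and 9.93 on the Sage arrays, against 10.36, 11.14 and 10.15 on the WT arrays. Its groups overlapped, and the difference of -0.59 (SE 0.27) had an adjusted p of 0.25. mRpS33 and mRpS31, proteins specific to mitochondria in the head of the mammalian subunit, had differences of -0.51 and -0.50 with adjusted p-values of 0.22 and 0.21. In each of them the Sage arrays lay below the WT arrays. At the other end stood mRpS28 (0.24), mRpS24 (0.16), mRpS6 (0.14), mRpS18C (0.11) and mRpS2 (0.03), all with intervals that include 0. mRpS2 also varied little, with 9.31, 9.37 and 9.34 on the Sage arrays, against 9.37, 9.32 and 9.25 on the WT arrays.

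Between the subunits, the small one had the lower median by 0.12 and the larger share of separated genes. In 10 of 25 small subunit genes all Sage arrays lay below all WT arrays, 40.0%, against 5 of 44 large subunit genes, 11.4%, and 16.1% of all genes, so the large subunit's share lay below that of the array as a whole. No test was made between the subunits, because their genes share the same arrays and are not replicates. Within the small subunit all 10 genes specific to mitochondria had negative differences (median -0.34, range -0.51 to -0.05), as had 10 of the 15 with a bacterial relative (median -0.17). In the large subunit the order was the other way round: the 16 genes specific to mitochondria had a median of -0.12 with 10 negative, and the 28 with a bacterial relative a median of -0.19 with 25 negative. The mammalian counterparts of mRpS18A and mRpS30 are found on the large subunit. Counting these 2 genes there, an alternative added with the data in view, left the medians at -0.19 for the large and -0.29 for the small subunit. In each of these 2 genes all Sage arrays lay below all WT arrays, so the alternative would bring the subunits' shares of separated genes closer together. mRpS30 was also counted in the central protuberance list above.

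Most of the family varied together from array to array, and 1 wild type array stood far above the others. WT array 2 gave the highest of the 3 WT values in 64 of 69 genes, or 92.8% against 50.7% of all genes. Its excess over the mean of WT arrays 1 and 3 had a median of 0.60 in the family, with a range of -0.31 to 0.95, against a median of 0.07 over all genes. Sage array 2 was likewise the highest Sage array in 62 genes, or 89.9% against 45.7% of all genes, but by a smaller median of 0.18 over Sage arrays 1 and 3. In 59 genes array 2 was the highest of both groups, against 32.3% of all genes. The median SD of a member was 0.14 among the Sage arrays and 0.35 among the WT arrays, where all genes had medians of 0.12 and 0.19.

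**Figure D3:**
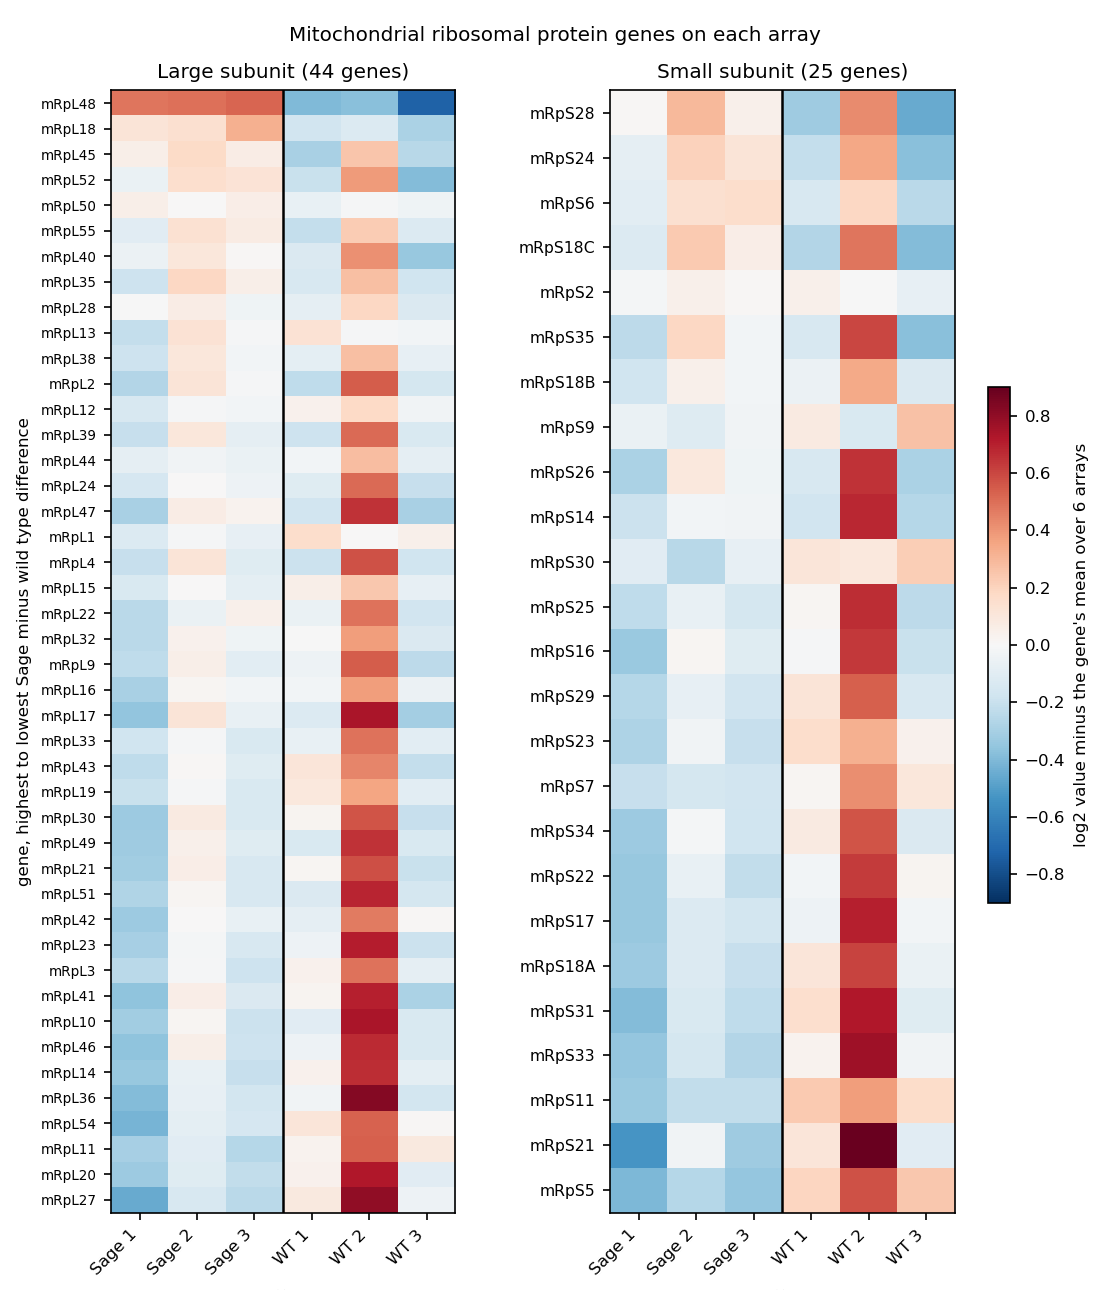
Each row is a gene and each column an array. Colour gives the log2 value minus the gene's mean over the 6 arrays, red above and blue below. WT array 2 is red in nearly every row of both subunits, while mRpL48 at the top left is red on the Sage arrays and blue on the WT arrays.

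The excess of WT array 2 was largest in mRpL17, which read 9.96, 10.43 and 10.25 on the Sage arrays, against 10.19, 11.05 and 10.01 on the WT arrays. The groups overlapped, and the difference was -0.20 (SE 0.28). In the other 10 genes array 2 was not the highest in both groups: mRpL1, mRpL13, mRpL18, mRpL22, mRpL48, mRpL50, mRpS2, mRpS6, mRpS9 and mRpS30. In mRpS9 WT array 2 was the lowest, with 10.07, 10.01 and 10.10 on the Sage arrays, against 10.21, 9.99 and 10.39 on the WT arrays. mRpS30 read 9.72, 9.57 and 9.75 on the Sage arrays, against 9.93, 9.92 and 10.04 on the WT arrays, with no overlap and a difference of -0.28 (adjusted p 0.14). These genes are listed after their values were seen.

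The shift of the family therefore depended on which arrays were set against each other. Between arrays of the same replicate number the median difference of the 69 genes was -0.21 for number 1, -0.49 for number 2 and 0.05 for number 3. The genes with a negative difference numbered 57, 63 and 27 in these comparisons. For the large subunit the medians were -0.19, -0.47 and 0.06, and for the small subunit -0.24, -0.58 and -0.06. Without both arrays numbered 2, 45 genes were negative, or 28 of 44 in the large and 17 of 25 in the small subunit, where 50.9% of all genes were, and the medians were -0.10 for the family, -0.08 for the large and -0.21 for the small subunit. Without WT array 2 alone the medians were -0.02 for the large and -0.15 for the small subunit. In that fit mRpL18, at a limma adjusted p that rounds to 0.05, and mRpS28 passed as raised beside mRpL48. These are 3 of 69 genes, where 857 of all 11983 genes were raised.

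**Figure D4:**
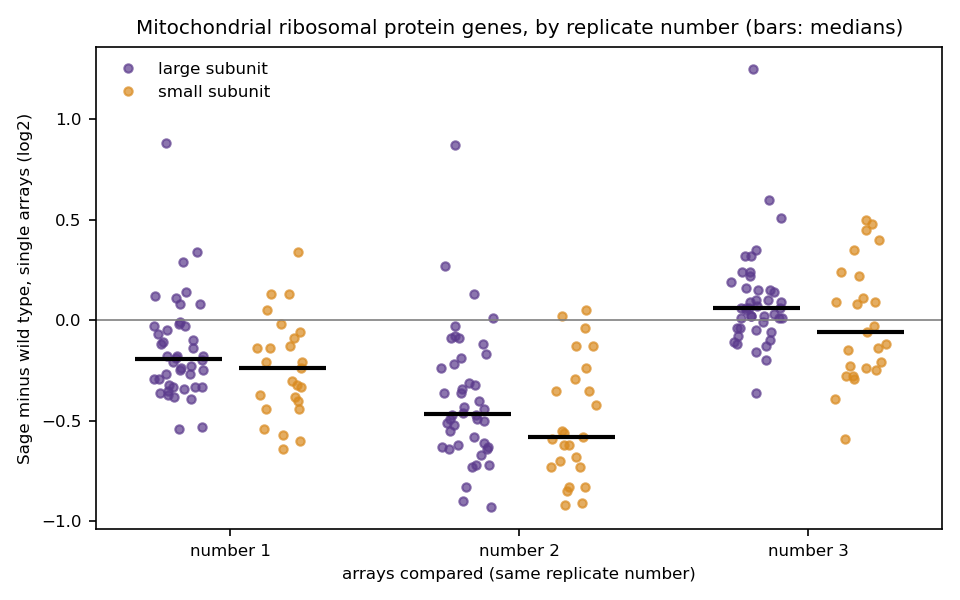
Difference between the Sage and the WT array of the same replicate number (log2, vertical axis) for every gene, large subunit left and small subunit right at each number, with bars at the medians. The points lie lowest at number 2 and around 0 at number 3.

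Many tissue markers read low on WT array 2. Among the 21 measured tissue markers 13 had their lowest WT value on that array, against 32.6% of all genes. Mlc2 of muscle was 1 of them, with 10.54, 10.55 and 10.59 on the Sage arrays, against 11.01, 9.78 and 10.80 on the WT arrays. Others went the other way: repo, nSyb, Pxn, sage and PH4alphaSG1 had their highest WT value there. The glial marker repo read 9.69, 10.07 and 9.36 on the WT arrays. Sage array 2 was the lowest Sage array in 9 of the 21 markers, against 31.5% of all genes. The polyA spike-ins had median deviations of -0.63, -0.85 and -0.87 on the Sage arrays, against 0.88, 1.3 and 0.17 on the WT arrays, where WT array 3 was the farthest from the other two. The part of these readings in the high values of mitochondrial ribosomal protein genes on WT array 2 was not tested.

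The lists of other mitochondrial genes also read high on WT array 2, by less than the ribosomal proteins. The median excess of that array over WT arrays 1 and 3 was 0.33 in 24 genes for mitochondrial translation factors and tRNA charging, 0.28 in 80 genes for oxidative phosphorylation subunits, 0.28 in 14 genes for mitochondrial transcription, RNA processing and mtDNA upkeep, and 0.22 in 20 import genes, where all genes had 0.07. In 41 genes for cytosolic ribosomal proteins it was 0.08, close to the value for all genes. Means in this list ran from 4.71 to 14.52, and many lay near the upper end of the log2 values. Its median SD among the WT arrays was 0.09, against 0.19 for all genes and 0.35 for the mitochondrial ribosomal proteins. The part of such bright signals in the small excess of this list was not tested. The oxidative phosphorylation, import and cytosolic ribosomal lists were drawn mostly by symbol. Some of them hold paralogues with low values, and some hold genes whose products were not checked to be subunits, such as Sdhaf3 and RpLP0-like. In the Sage comparison, 0 translation and charging genes rose and 3 fell, with a median of -0.07, so 12.5% of the list fell, against 3.72% of all genes. GatB, a subunit of the enzyme that makes glutaminyl-tRNA in mitochondria, averaged 5.90 ± 0.07 in Sage and 7.0 ± 0.21 in WT (SD, n = 3 each), a log2 difference of -1.1 (adjusted p 0.0058). The mitochondrial tRNA synthetases GluRS-m and MetRS-m fell by 0.71 and 0.75 (adjusted p 0.016 and 0.035).

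Among the oxidative phosphorylation genes 1 rose and 1 fell around a median of -0.09, or 1.25% each way, against 4.36% and 3.72% of all genes. With replicate number as a block 1 of the 80 rose and 3 fell, where 7.35% and 7.39% of all genes did. COX4L, a paralogue of a cytochrome c oxidase subunit, rose by 0.96 (adjusted p 0.025), and ATPsynbeta, the catalytic subunit of ATP synthase, fell by 0.95 (adjusted p 0.0071). ND-13B and ox, subunits of respiratory complexes, passed only with the block (adjusted p 0.027 each, against 0.067 and 0.17 without it). Of the 20 import genes 1 fell and 0 rose, or 5% lowered against 3.72% of all genes. The gene that fell, Tom40, encodes the channel of the outer membrane. It averaged 10.74 ± 0.11 in Sage and 11.22 ± 0.02 in WT, a difference of -0.48 (adjusted p 0.033). None of the 14 genes for mitochondrial transcription, RNA processing and mtDNA upkeep passed in limma. An unadjusted p under 0.05 was reached by 2 lower and 0 higher genes, or 14.3% lower against 12.8% of all genes. The smallest p in this list was that of TFAM, which packs mitochondrial DNA, with a difference of -0.60 (adjusted p 0.12, and 0.042 with replicate number as a block, where it was the 1 gene of its list that fell). None of the 41 genes listed as cytosolic ribosomal proteins passed in limma. At an unadjusted p below 0.05, 1 was higher and 2 lower, or 2.44% and 4.88%, against 11.7% and 12.8% of all genes. The 2 lower genes were RpLP0-like and RpS10a. The smallest p was that of RpL22-like (difference 0.34, adjusted p 0.064). Another 2 mitochondrial ribosomal proteins carry other names and were left out of the family by the rule: tko had a difference of -0.41 and bonsai of -0.10 (adjusted p 0.33 and 0.72). The excess of WT array 2 over WT arrays 1 and 3 was 0.74 in 1 of these 2 genes and -0.33 in the other.

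**Figure D5:**
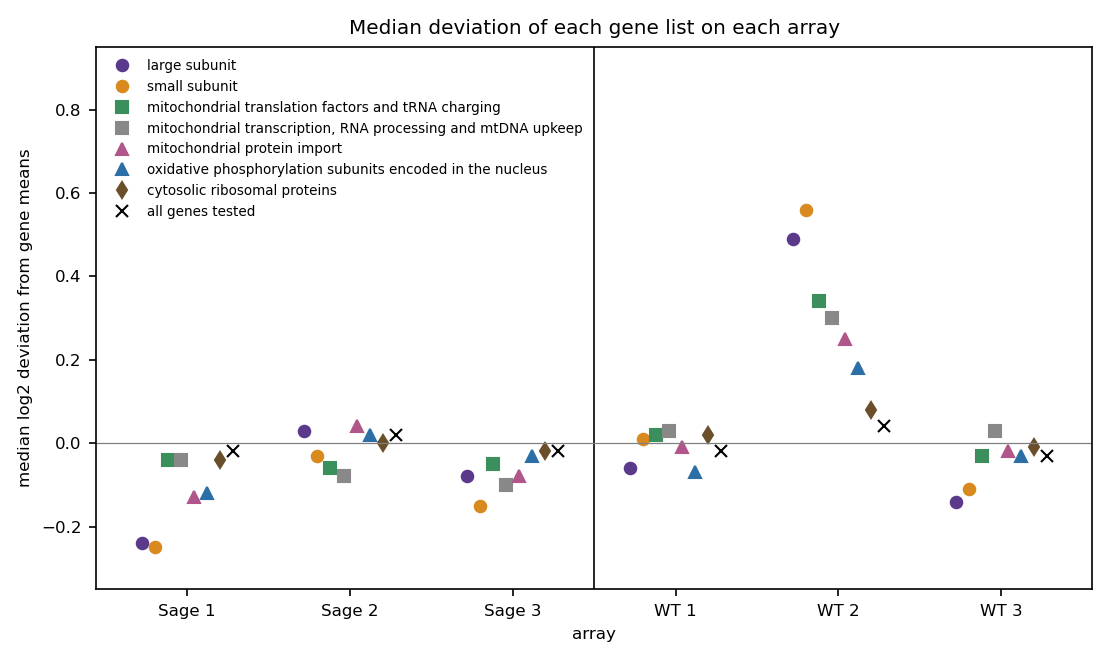
Median over each gene list of the log2 deviation from the gene's mean over 6 arrays (vertical axis), for each array. On WT array 2 the 2 subunits stand highest, at 0.49 for the large and 0.56 for the small subunit, above the other mitochondrial lists and above all genes at 0.04.

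The genes next to the 3 called members were also read, since an array probe can pick up RNA of an overlapping gene. mRpL48 overlaps frtz, a planar cell polarity gene, in the gene table. frtz averaged 8.06 ± 0.04 in Sage and 8.19 ± 0.08 in WT, a difference of -0.13 (adjusted p 0.45), so the probe set of frtz did not pass. The nearest measured genes on either side of mRpL48, CG17660 and Rim2, had differences of 0.36 and 0.63 that did not pass (adjusted p 0.091 and 0.11). Beside mRpS11, the nucleolar GTPase gene Ns1 fell by 0.60 (adjusted p 0.030), and Keap1 on the other side had a difference of -0.22 (adjusted p 0.58). The measured neighbours of mRpS5, nvd and scro, had differences of 0.00 and -0.14 and did not pass.

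Member means over all 6 arrays ran from 8.42 for mRpL45 to 10.73 for mRpL30 in the large subunit, and from 8.98 for mRpS23 to 10.99 for mRpS5 in the small subunit. These levels are of different probe sets and give no order of RNA amounts. All 69 means lay above the median probe set, so no member was lost to a filter on dim signals. For mRpL47 a second probe set gave a difference of -0.59 (SE 0.28), where the brighter one used here gave -0.13 (SE 0.26), and neither passed. Of 73 genes that the Release 6 gene table names mRpL or mRpS, mRpL34 and mRpL37 had no probe set listed and were not analysed here. mRpS10 and mRpL53 had only probe sets shared with another gene, with differences of -0.40 and -0.16.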

How the data were processed

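RNA of 6 samples of Drosophila embryos was measured on 6 Affymetrix arrays. The deposited values are log2 values per probe set; per the submitters' processing notes the authors used RMA and Partek, in versions not given in the sources used here. The log2 scale was read from the range of the values, 2.9 to 14.6. Of 18952 probe sets, 183 that serve as Affymetrix controls were not tested. Each of 11983 genes was represented by its one-gene probe set with the highest mean over the 6 arrays, and symbols were updated through a gene table of the Release 6 assembly. No genome build is given in the sources used here, so no coordinates are given, and no sequences or promoter motifs were analysed here.

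Sage overexpression and wild type were compared with limma 3.58.1 in R 4.3.3 (lmFit and eBayes, two-sided, Benjamini-Hochberg over all genes, threshold 0.05). The procedure was tested on simulated data. The members and lists were chosen with earlier results of these data known. Named are members past the threshold, the 5 highest and 5 lowest differences of each subunit, the extremes of signal, and, of each other list, members past the threshold or the one with the smallest p.

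The labels number the samples 1 to 3 in both groups. Deviations from the group mean over probe sets correlated at 0.39, 0.67 and 0.33 between same-numbered samples, so the numbers were taken as pairs for the replicate block, although WT 3 and Sage 1 correlated at 0.43. The number of arrays limits the precision. Other settings are listed in the closing section.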

Additional observations from a re-analysis of the deposited data

How the results depend on the processing

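The counts of 1 gene raised and 2 lowered were the same with each array centred on its median, quantile normalization, dim probe sets left out, the replicate block, averaging of probe sets per gene, and without both arrays numbered 2. With the replicate block the counts were 1 raised and 2 lowered, and it changed no other call among the members. With trend and robust eBayes 1 fell, and at an adjusted p under 0.01 0 fell. With a minimum log2 fold of 0.58, 0 rose and 0 fell, a stricter question by construction. With array weights 5 rose and 12 fell, in a fit that called 33.9% of all genes. Leaving out 1 array gave 1 to 3 raised and 0 to 2 lowered, with fewer arrays to estimate the spread, and 3 rose without WT array 2. Over all genes limma called 8.09%, against 14.7% with the replicate block, 2.44% at an adjusted p under 0.01, 1.1% with the minimum fold, and 2.29% (without Sage array 3) to 13.8% (without WT array 2) with 1 array left out.

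The family's median lay between -0.33 and -0.04 when 1 array was left out, that of the large subunit between -0.30 and -0.02, that of the small subunit between -0.41 and -0.15, and the large minus small difference between 0.11 and 0.16. With array weights the family's median was -0.08. Signs turned for some genes with small differences: mRpL47 (0.13 with array weights, 0.10 without both arrays numbered 2, 0.17 without WT array 2), mRpS2 (-0.01 with median centring and without WT array 3, -0.02 with array weights), and, without WT array 3, mRpL52 (-0.02) and mRpS18C (-0.05). Over all single arrays left out, mRpL47 ranged from -0.30 to 0.17, mRpL52 from -0.02 to 0.37, mRpS18C from -0.05 to 0.38 and mRpS2 from -0.01 to 0.06. The cause was not tested. None of these genes passed the threshold in those settings.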
